A study of Mus musculus with 4 samples.

Results

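The genes Serpina3f, Serpina3g, Serpina3h, Serpina3i, Serpina3m and Serpina3n, which belong to the mouse Serpina3 cluster on chromosome 12, are described here across 4 RNA-seq libraries. They are 6 of the 55728 entries of the count table, found by the symbols that GENCODE release M21 gives their Ensembl identifiers, and all 6 had a row. They were proposed with the UBXN9-over-control differences of these same libraries in view. Their UBXN9-over-control values are therefore a description and carry no test of their own.

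Serpins are protease inhibitors that work as bait: the target enzyme cuts an exposed loop near the end of the protein, the reactive-centre loop, and is then trapped in an inactive complex. Human has a single SERPINA3 gene, which encodes alpha-1-antichymotrypsin, an acute-phase protein of liver. Mouse has a tandem cluster of Serpina3 copies whose loops differ, and several of them are known to respond to interferon, to interleukin-6 and to NF-kB.

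Both groups were of the LPC-HRas line, liver cancer cells from mouse, grown unstimulated in DMEM with 10% fetal bovine serum. The first group overexpressed UBXN9, the protein of Aspscr1, which binds the ATPase VCP and tethers the glucose transporter GLUT4 inside cells, and the second group was the control line. Each group has 2 libraries, made from total RNA with the TruSeq RNA Sample Prep Kit v2 and sequenced on an Illumina HiSeq instrument. No label gives the vector or states that replicates came from separate cultures, so a p-value reflects no more than the spread among these libraries, which may be technical. All 4 libraries come from 1 cell line, and the labels name no batch.

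The libraries held 21814969 and 26292686 estimated counts with UBXN9, and 24677770 and 22147475 in control. Levels are given as CPM, TMM-scaled counts relative to library size. Aspscr1 stood at 391.6 and 380 CPM with UBXN9, against 92.1 and 115 CPM in control, a log2 fold change of 1.90 (SE 0.18, edgeR quasi-likelihood test with Benjamini-Hochberg adjustment, adjusted p = 0.00144), so its level matches the labels. Of 14 liver epithelial markers, Spp1 (osteopontin) and Sox9, both of biliary and progenitor cells, were abundant at 2866 ± 176 and 201 ± 10.1 CPM with UBXN9, and 2340 ± 202 and 171 ± 4.39 CPM in control (SD, n = 2 each). Alb (albumin) had 0 counts in all libraries and Hnf4a at most 1, so these defining hepatocyte markers were absent. Of the 8 epithelial markers tested, 0 were called higher by edgeR (1 at an unadjusted p under 0.05) and 2 lower, the keratins Krt18, at 0.231 ± 0.166 CPM with UBXN9 and 2.83 ± 0.229 CPM in control (adjusted p = 0.00972), which passed the filter through the controls alone, and Krt19, at 2.72 ± 0.803 CPM with UBXN9 and 8.72 ± 2.35 CPM in control (adjusted p = 0.0294, and 0.109 without control replicate 2). Pdgfrb, a mesenchymal receptor on the fibroblast and stellate list of 5 genes, reached 218 ± 31.4 CPM with UBXN9 and 168 ± 8.92 CPM in control. The other genes of that list were lower, with the UBXN9 mean first and the control mean second. Dcn averaged 16.7 and 12.8 CPM, Des 0.768 and 1.05, Lum 0.369 and 0.0799, and Lrat 0.0189 and 0. None of the list was called in either direction.

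Markers of immune cells were near 0: Ptprc (CD45) had at most 3 counts, and Cd3e had 0 in all libraries. The 10 immune markers summed to 9.56 and 9.69 CPM with UBXN9, and 6.22 and 6.17 CPM in control. Only Cd68 and Lyz2 of them passed the low-count filter. Lyz2, a lysozyme of myeloid cells, was higher at 3.11 ± 0.0314 CPM with UBXN9, against 0.871 ± 0.333 CPM in control (edgeR log2 fold change 1.82, adjusted p = 0.0408), a call lost without control replicate 2 (adjusted p = 0.236). The 5 endothelial markers summed to 4.38 and 3.92 CPM with UBXN9, and 3.05 and 2.00 CPM in control, with none called. The part of these markers in the Serpina3 levels was not tested. In bulk RNA, fewer cells that express a gene and less RNA per cell cannot be told apart.

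The promoters are shown because the members moved by unequal amounts and parts of their promoters can be aligned. RefSeq promoter sequences (GRCm38.p6) were held for 4 of the 6 members, and the 250 bases before 1 RefSeq start are printed for each. All lie on the + strand, at chr12:104214294-104214543 for Serpina3f, chr12:104235897-104236146 for Serpina3g, chr12:104262872-104263121 for Serpina3i and chr12:104406458-104406707 for Serpina3n. Capitals mark the 9 letters that fall at the same place in the alignment of these promoters with that of Serpina3i.
Serpina3f: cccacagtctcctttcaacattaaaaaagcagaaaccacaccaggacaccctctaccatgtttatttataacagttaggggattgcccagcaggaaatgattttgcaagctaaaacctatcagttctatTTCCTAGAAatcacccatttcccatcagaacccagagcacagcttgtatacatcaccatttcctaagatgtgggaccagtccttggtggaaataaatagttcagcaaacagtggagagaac
Serpina3g: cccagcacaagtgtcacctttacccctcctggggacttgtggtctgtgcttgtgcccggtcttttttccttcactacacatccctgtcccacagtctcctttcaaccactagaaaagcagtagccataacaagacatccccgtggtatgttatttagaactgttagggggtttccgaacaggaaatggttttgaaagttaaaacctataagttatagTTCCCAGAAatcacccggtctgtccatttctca
Serpina3i: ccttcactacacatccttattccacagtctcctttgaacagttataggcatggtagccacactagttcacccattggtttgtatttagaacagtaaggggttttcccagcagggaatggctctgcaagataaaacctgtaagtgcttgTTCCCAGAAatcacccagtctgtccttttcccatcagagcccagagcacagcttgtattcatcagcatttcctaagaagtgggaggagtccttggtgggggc
Serpina3n: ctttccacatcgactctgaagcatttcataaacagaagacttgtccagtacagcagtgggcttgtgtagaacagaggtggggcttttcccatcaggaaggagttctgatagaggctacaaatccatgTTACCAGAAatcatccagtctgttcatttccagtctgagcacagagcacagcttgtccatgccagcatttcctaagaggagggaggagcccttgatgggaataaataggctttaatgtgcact

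The capitals of Serpina3f, Serpina3g and Serpina3i match TTCNNNGAA, the letters of the gamma-activated site to which STAT dimers bind. The search covered both strands, and 7.02% of the 32851 RefSeq promoters of this length held a match. Counted back from the RefSeq start of each printed window, the match lay at -121 to -113 in Serpina3f, -33 to -25 in Serpina3g and -102 to -94 in Serpina3i. Another RefSeq start of Serpina3f puts the same match at -210 to -202. The printed window of Serpina3g ends at 104236146, ahead of the GENCODE gene start at 104236245, so these distances depend on the start used. With positions counted from 1 at the 5′ end of the 9 letters and the base of Serpina3i first, Serpina3f differs by C5T and Serpina3g by no base. Serpina3n differs by C3A and so holds no match to these letters in this window.

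The NF-kB motif, which 7.25% of the promoters held, was found in Serpina3g at -85 to -76, as GGGGGTTTCC, and in Serpina3i at -154 to -145, as GGGGTTTTCC. It was not found in the windows of Serpina3f and Serpina3n. The interferon-stimulated response element (ISRE), also searched on both strands and held by 2.98% of promoters, had no match in any of the 4 windows. The printed windows of Serpina3f and Serpina3g were identical at 82.6% of 161 aligned positions, those of Serpina3f and Serpina3i at 82.2% of 219, and those of Serpina3g and Serpina3i at 80.4% of 179. The window of Serpina3n shared 77.9% of 222 positions with Serpina3i and 70.6% of 231 with Serpina3f. With Serpina3g it shared 59.5% of 205, but these windows are shifted against each other. The capitals lie at -33 to -25 in Serpina3g and at -123 to -115 in Serpina3n. The window of Serpina3c, a copy that is no member, shared 92.7% of 247 positions with Serpina3n and 76.4% of 157 with Serpina3g. The value of 59.5% is therefore not read as the likeness of these promoters. The motif matches describe the letters and say nothing of binding.

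The coding sequences are shown in the stretch where the copies differ most, among the stretches that all of them hold. Among the 5 members with an annotated coding sequence in GENCODE M21, the median identity over 553 windows of 90 aligned columns was 84.3%. Windows held at most 15 gap columns in any gene. The part that the shorter annotated coding sequence of Serpina3g lacks was therefore not scanned. The least alike window had a mean pairwise identity of 63.2%. It lies in the last exon of the model used for each gene and near the end of the coding sequence, the end that encodes the reactive-centre loop of serpins. Its coordinates (GRCm38, + strand) are chr12:104220272-104220361 in Serpina3f, chr12:104241099-104241185 in Serpina3g, chr12:104268507-104268593 in Serpina3i, chr12:104393796-104393882 in Serpina3m and chr12:104413475-104413561 in Serpina3n. Capitals mark the 55 columns at which the 5 genes are not all alike.
Serpina3f: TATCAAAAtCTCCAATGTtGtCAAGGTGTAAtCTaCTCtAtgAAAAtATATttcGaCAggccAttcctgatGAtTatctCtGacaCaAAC
Serpina3g: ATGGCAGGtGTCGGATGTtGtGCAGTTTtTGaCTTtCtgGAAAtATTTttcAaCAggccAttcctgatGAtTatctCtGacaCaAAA
Serpina3i: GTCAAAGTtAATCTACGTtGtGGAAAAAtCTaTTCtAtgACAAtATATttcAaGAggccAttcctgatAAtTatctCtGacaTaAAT
Serpina3m: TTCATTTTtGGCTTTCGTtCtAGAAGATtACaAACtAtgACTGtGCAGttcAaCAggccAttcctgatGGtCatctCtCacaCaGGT
Serpina3n: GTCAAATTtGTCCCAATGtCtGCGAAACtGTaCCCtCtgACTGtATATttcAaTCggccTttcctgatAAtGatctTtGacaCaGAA

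Over the coding bases that could be aligned, Serpina3f and Serpina3i were the closest pair of members, with 91.2% identity over 1224 bases. Serpina3f and Serpina3g shared 86.8% of 744, Serpina3g and Serpina3n 84.3% of 648, and Serpina3m and Serpina3n 85.2% of 1254. The values of Serpina3g thus cover only part of the other coding sequence. The annotated coding sequence had 1335 bases in Serpina3f, 744 in Serpina3g, 1224 in Serpina3i, and 1254 in each of Serpina3m and Serpina3n.

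Serpina3g, also known as Spi2A, encodes an inhibitor that lacks a secretion signal, stays inside the cell and inhibits cysteine cathepsins. The gene spans chr12:104236245-104241939 (GRCm38, + strand) and was the most abundant member in every library. It held 302 and 241 CPM with UBXN9, against 98.8 and 106 CPM in control. Both UBXN9 libraries stood above both controls, with no overlap. The means were 271 ± 43.2 CPM with UBXN9 and 102 ± 4.83 CPM in control (SD, n = 2 each). The log2 fold change was 1.41 (SE 0.18), or 2.65-fold, the 602nd highest of 13230 genes tested.

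Serpina3f, at chr12:104214544-104221129 on the + strand, lies before Serpina3g and is an intact serpin gene of the same cluster. It moved most of the members: 142 and 114 CPM with UBXN9, against 8.74 and 8.76 CPM in control. The control libraries were nearly equal, and the lower UBXN9 library was 13.0 times the higher control. The means were 128 ± 20.2 CPM with UBXN9 and 8.75 ± 0.0127 CPM in control (SD, n = 2 each). The log2 fold change of 3.87 (SE 0.20), or 14.6-fold, ranked 113th from the highest.

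Serpina3n, at chr12:104406729-104414329 on the + strand, encodes a secreted acute-phase serpin that inhibits granzyme B. It held 25.0 and 31.1 CPM with UBXN9, against 14.996 and 15.2 CPM in control. The groups did not overlap, and here UBXN9 replicate 2 was the higher library of its group, whereas replicate 1 was the higher for Serpina3f and Serpina3g. The means were 28.1 ± 4.32 CPM with UBXN9 and 15.1 ± 0.175 CPM in control (SD, n = 2 each), with a log2 fold change of 0.89 (SE 0.20), or 1.86-fold.

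Serpina3i, at chr12:104263122-104269372 on the + strand, is the copy closest to Serpina3f and was low in all libraries. It had 67.1 and 77.3 estimated counts with UBXN9, against 22.02 and 28.1 in control. These come to 3.33 and 2.90 CPM with UBXN9, and 0.839 and 1.27 CPM in control, so the groups did not overlap. The means were 3.12 ± 0.305 CPM with UBXN9 and 1.05 ± 0.305 CPM in control (SD, n = 2 each). Its log2 fold change came to 1.57 (SE 0.37), less precise than the value of Serpina3g.

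Serpina3h and Serpina3m were close to the limit of detection. Serpina3h, which GENCODE lists as a transcribed unprocessed pseudogene at chr12:104247905-104253669, had 6.02 and 4.03 estimated counts with UBXN9, against 3 and 3.01 in control. Pooled and rounded, its 10 counts against 6 give a scaled ratio of 1.73, with an exact 95% interval of 0.568 to 5.78 that includes 1. Serpina3m, at chr12:104338486-104394257, had 6 and 7 counts with UBXN9, against 1 and 2 in control. Its 13 pooled counts against 3 give a ratio of 4.49 (95% interval 1.23 to 24.5). These Clopper-Pearson intervals cover counting error only.

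**Figure D1:**
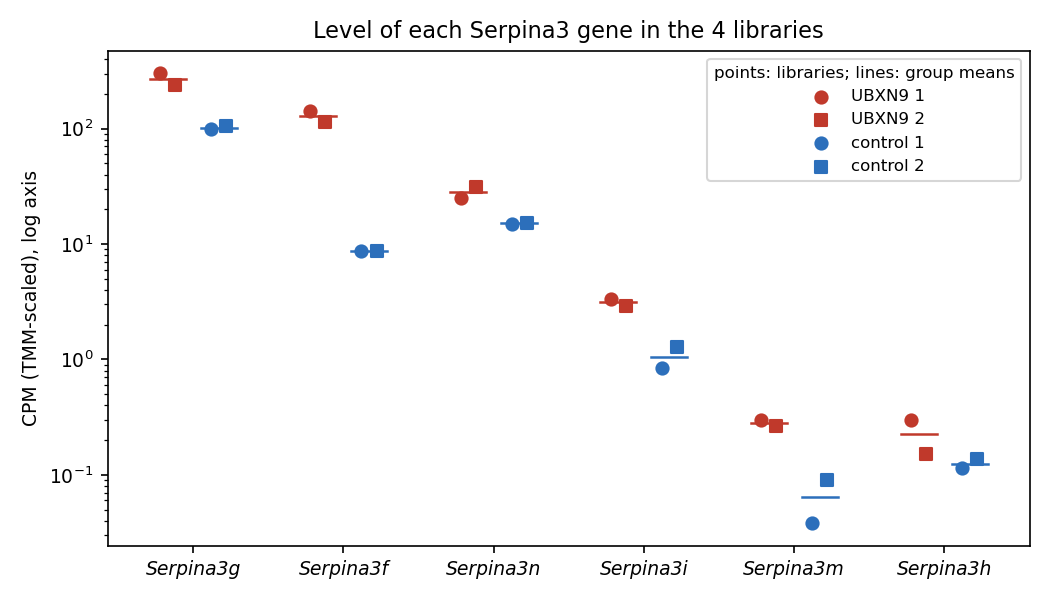
Level of each member in each library, with CPM on a log axis, UBXN9 libraries left and control libraries right in each pair; points are libraries and short lines are group means (n = 2). Serpina3f shows the widest gap, between 114 CPM in the lower UBXN9 library and 8.76 CPM in the higher control, while Serpina3h and Serpina3m lie below 1 CPM.

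Of the 6 members, 4 passed the low-count filter, and 3 of these, Serpina3f, Serpina3g and Serpina3n, had an edgeR adjusted p under 0.05 in the fit over 13230 genes, all higher with UBXN9. Over all genes tested, 669 or 5.06% were called higher and 315 or 2.38% lower. Since the members were chosen on this contrast, nothing is read from their count. Both UBXN9 libraries were above both controls for all 6 members, among them the 4 tested. The same held for 25.0% of all genes tested, a share that does not cover Serpina3h and Serpina3m. For Serpina3h that separation was 4 counts against 3. Without control replicate 1 or without control replicate 2 the call of Serpina3n was lost, at log2 fold changes of 0.88 and 0.91. Without either UBXN9 library Serpina3i was called as well, at 1.48 without replicate 1 and 1.67 without replicate 2.

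Levels of different genes are compared per kilobase of annotated exon. On that scale the order with UBXN9 was Serpina3g at 129 ± 20.5, Serpina3f at 55.9 ± 8.82, Serpina3n at 13.6 ± 2.09 and Serpina3i at 1.40 ± 0.137 CPM per kb (SD, n = 2). In control it was Serpina3g at 48.6 ± 2.29, Serpina3n at 7.33 ± 0.0849, Serpina3f at 3.82 ± 0.00556 and Serpina3i at 0.474 ± 0.137 CPM per kb (SD, n = 2). Serpina3f and Serpina3n thus changed places, and neighbours in either order did not overlap between libraries. Serpina3m and Serpina3h came last in both groups, at 0.164 ± 0.0143 and 0.157 ± 0.0729 CPM per kb with UBXN9, and 0.0375 ± 0.0216 and 0.0874 ± 0.0107 CPM per kb in control. With UBXN9 the libraries of these last genes overlapped.

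The ratio of Serpina3f to Serpina3g within a library needs no scaling between libraries. Per kilobase of exon it was 0.433 and 0.434 with UBXN9, against 0.0813 and 0.0762 in control. The libraries of a group were nearly equal, and the groups lay far apart. The ratio of Serpina3n to Serpina3g was 0.0846 and 0.132 with UBXN9, against 0.155 and 0.147 in control, so it was lower with UBXN9 and spread more between the UBXN9 libraries. The ratio of Serpina3i to Serpina3g was 0.0105 and 0.0114 with UBXN9, against 0.00804 and 0.0114 in control, and there the groups overlapped.

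As shares of all counts of the 6 members, Serpina3g took 63.8% and 61.9% with UBXN9, against 80.0% and 80.6% in control. Serpina3f took 30.1% (exact 95% interval 29.1 to 31.0) and 29.2% (28.4 to 30.1) with UBXN9, against 7.07% (6.21 to 8.01) and 6.68% (5.79 to 7.65) in control. These intervals cover counting error only. Both shares of Serpina3f with UBXN9 were above both in control, and libraries of a group differed by less than 1 percentage point. Serpina3n took 5.29% and 8.01% with UBXN9, against 12.1% and 11.6% in control, although its own level was higher with UBXN9.

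**Figure D2:**
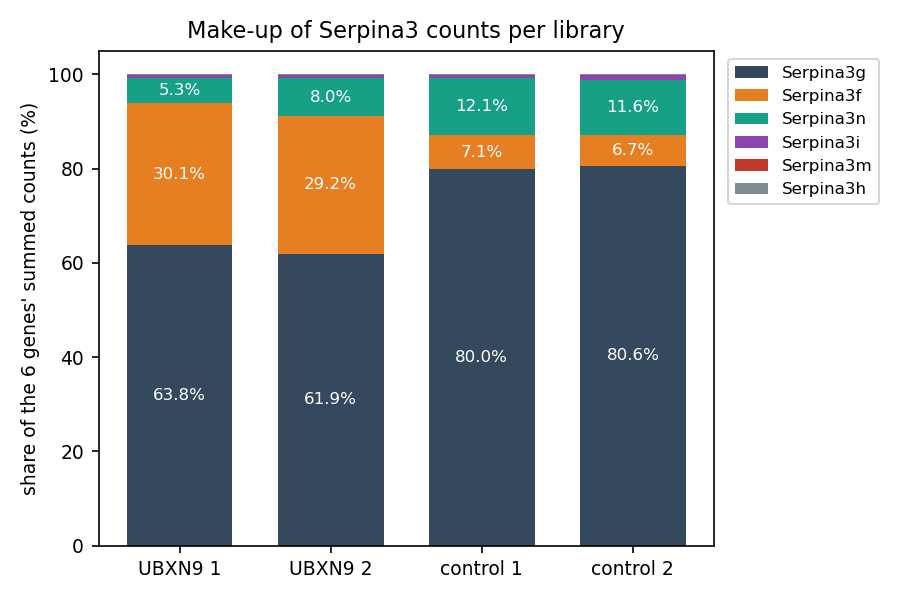
Share of the counts of the 6 members taken by each of them, in percent, per library, with UBXN9 libraries left of control libraries. Serpina3f makes up 30.1% and 29.2% in the UBXN9 libraries, and 7.07% and 6.68% in the controls.

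The cluster is compact. The members span 199.786 kb, and 14 genes and pseudogenes of the Serpina3 name lie in the locus. The copies that are no members were silent or nearly so. Serpina3a, Serpina3b, Serpina3j, Serpina3k and the pseudogene Serpina3l-ps had 0 counts in all 4 libraries, where 3 counts would be 0.115 to 0.138 CPM. Serpina3c had 5 and 6 counts with UBXN9, against 2 and 1 in control. The pseudogene Serpina3d-ps had 1 and 5 counts with UBXN9 and 0 in both controls, and Serpina3e-ps had 3.01 and 5.01 with UBXN9, against 3.01 and 1.00 in control. These counts are too few to compare.

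Gm8918, a processed pseudogene between Serpina3f and Serpina3g, and Gm24334, a small nucleolar RNA gene beyond Serpina3n, had 0 counts in all libraries. Of 28 genes in the locus window, 15 had 0 counts in all libraries. Dicer1, the nuclease of microRNA maturation, was expressed in the window, 473 kb beyond the start of Serpina3f. It averaged 21.3 CPM with UBXN9 and 19.4 CPM in control (edgeR log2 fold change 0.14, SE 0.30, adjusted p = 0.861). Thus 4 copies with more than 20 counts in each library, Serpina3f, Serpina3g, Serpina3i and Serpina3n, lay among Serpina3 copies that held few or none.

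**Figure D3:**
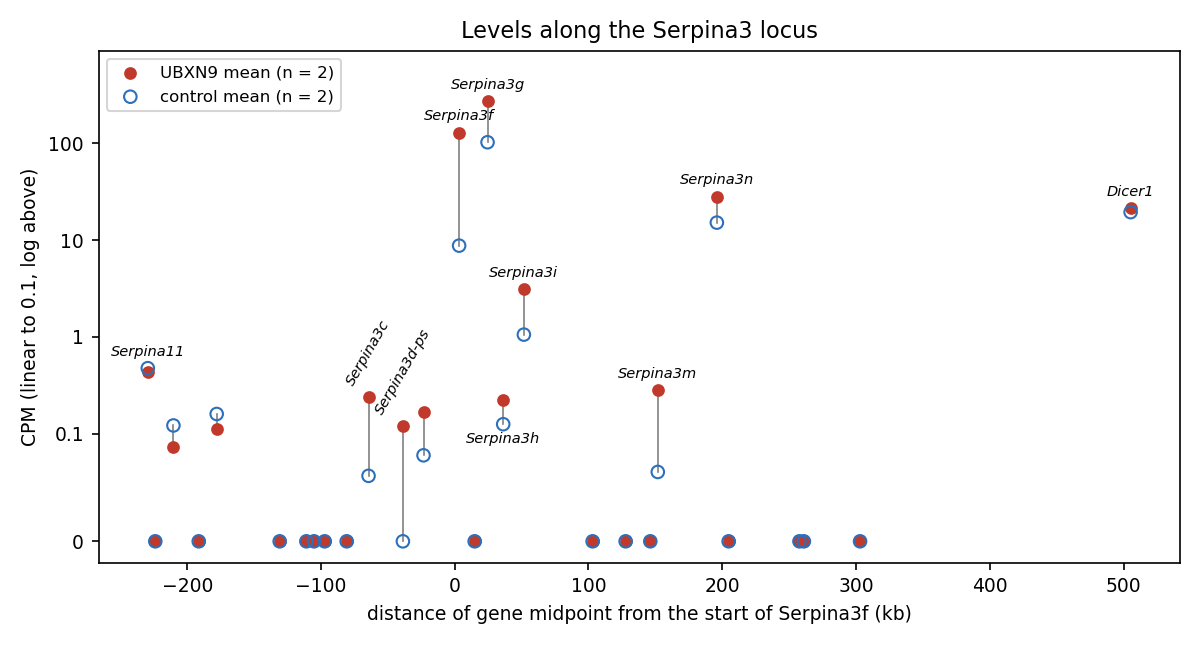
Mean CPM of every gene in the locus window against the distance of its midpoint from the start of Serpina3f, in kb, on an axis that is linear up to 0.1 CPM and logarithmic above; filled points are UBXN9 means and open points control means (n = 2 each). Serpina3f, Serpina3g, Serpina3i and Serpina3n stand above the other Serpina3 copies, which are at or near 0, and Dicer1, at the right end, has 21.3 CPM with UBXN9 and 19.4 CPM in control.

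Reads from a stretch that copies share cannot be placed in a single gene, and 19 of the 24 member values in the table are not whole numbers. Of all 100-base words in the transcripts of Serpina3f, 3.40% occur in transcripts of another gene. The share was 3.49% for Serpina3g, 3.60% for Serpina3h, 2.25% for Serpina3i, 6.09% for Serpina3m and 0.204% for Serpina3n. Transcripts that run across another Serpina3 gene were left out of the word counts at both lengths. This removed the model of Serpina3m that starts with Serpina3k, so its share rests on its other model. All of the words that Serpina3m shared were in Serpina3k, whose start its annotated span also covers. Serpina3k itself had 0 counts in all libraries.

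With 50-base words the shares were 10.6% for Serpina3f, 15.5% for Serpina3g, 21.9% for Serpina3h, 15.9% for Serpina3i, 19.1% for Serpina3m and 6.90% for Serpina3n. Serpina3h shared 15.8% of these words with Serpina3i and 14.1% with Serpina3g, and it had at most 6.02 counts beside at least 2328 for Serpina3g. How many of the counts of Serpina3h and Serpina3i are reads of Serpina3f or Serpina3g was not tested, and both are uncertain for this reason. The longest run that coding sequences of Serpina3f and Serpina3i share has 132 bases, at chr12:104217103-104217234 and chr12:104265328-104265459 (GRCm38, + strand, exon 3 of the models used). It is shown because a read within it fits both genes. The first 119 bases of this run, coding bases 223 to 341 of Serpina3f, also occur in the transcript of Serpina3g, ahead of its annotated coding sequence. Reads within them fit all of these genes. The longest run of Serpina3g and Serpina3i has 135 bases and covers coding bases 207 to 341 of Serpina3i.
Serpina3f and Serpina3i: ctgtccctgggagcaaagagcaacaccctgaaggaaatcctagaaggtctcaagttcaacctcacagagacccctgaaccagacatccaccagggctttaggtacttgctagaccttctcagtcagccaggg

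**Figure D4:**
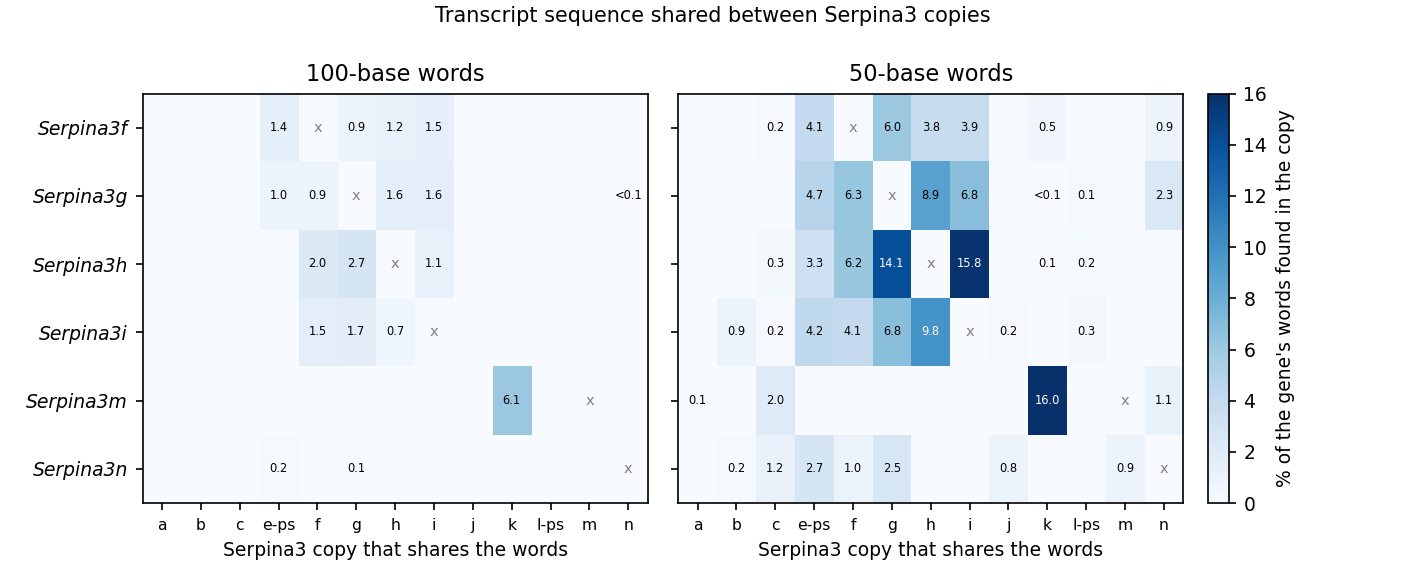
Share of the transcript words of each member (rows) that occur in another Serpina3 copy (columns), in percent, for words of 100 bases (left) and 50 bases (right); a cross marks the gene itself and blank cells hold none. Serpina3f, Serpina3g, Serpina3h and Serpina3i share words mainly with each other, Serpina3m with Serpina3k, and Serpina3n least of all.

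Adding the 6 members in each library removes any exchange of reads among them. The sum was 473 and 389 CPM with UBXN9, against 123 and 131 CPM in control. The groups did not overlap, and the means were 431 ± 59.5 CPM with UBXN9 and 127 ± 5.37 CPM in control (SD, n = 2 each). The log2 fold change of the sum was 1.76 (SE 0.18), or 3.38-fold, and it lay between 1.62 and 1.89 over all alternatives and libraries left out.

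Other serpins were examined as a family background. Of 13 clade A serpins outside the cluster, which include the alpha-1-antitrypsin genes, 1 was tested, Serpina11, at 0.437 ± 0.0854 CPM with UBXN9 and 0.475 ± 0.03 CPM in control and no call in edgeR (unadjusted p = 0.816). Of 27 clade B serpins, which act inside cells, 7 were tested, 2 were called higher and 0 lower, and the median of the log2 fold changes was 1.13, beside 5.06% higher, 2.38% lower and a median of -0.0056 over all genes tested. Serpinb9, an inhibitor of granzyme B, stood at 18.9 and 17.9 CPM with UBXN9, against 5.00 and 4.67 CPM in control (edgeR log2 fold change 1.92, SE 0.22, adjusted p = 0.00341). Serpinb2, an inhibitor of plasminogen activators, was low and uneven, at 5.43 and 2.07 CPM with UBXN9, against 0.267 and 0.227 CPM in control (edgeR log2 fold change 3.88, SE 0.62, adjusted p = 0.0123). Serpinb2 had fewer than 10 counts in each control and passed the filter through the UBXN9 libraries alone. Without it 6 clade B serpins were tested, 1 was called higher and the median was 0.74. At an unadjusted p under 0.05, edgeR gave 3 higher and 0 lower, and DESeq2 called 2 higher and 0 lower. With a filter of 5 CPM 1 clade B call was left.

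Of 11 serpins of other clades, 5 were tested, 1 was called higher and 0 lower, and the median of the log2 fold changes was 0.30, against the same shares and median of all genes. At an unadjusted p under 0.05, edgeR gave 2 higher and 1 lower, and DESeq2 called 1 in each direction. Without control replicate 1 edgeR called 0 higher.

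Protease families that include known targets of serpins of this cluster were examined next. Not every enzyme in these lists is a known target. None of 20 leukocyte serine proteases, such as granzymes, neutrophil elastase and chymases, passed the filter; 14 had 0 counts in all libraries and none had over 5 in any. Of 14 cathepsins, 9 were tested, 0 were called higher and 1 lower, and the median of the log2 fold changes was 0.03, where 5.06% of all genes tested were called higher and 2.38% lower. At an unadjusted p under 0.05, edgeR gave 1 higher and 3 lower, and DESeq2 called 0 higher and 3 lower after adjustment. The edgeR call was Ctsh, a lysosomal aminopeptidase, at 0.647 and 0.566 CPM with UBXN9, against 4.43 and 3.77 CPM in control (edgeR log2 fold change -2.75, SE 0.36, adjusted p = 0.00539). Ctsb and Ctsl, cysteine cathepsins that Serpina3g is known to inhibit, were picked after their values were seen. Ctsb stood at 494 ± 92.4 CPM with UBXN9 and 486 ± 47.4 CPM in control, and Ctsl at 575 ± 46.7 CPM with UBXN9 and 920 ± 58.6 CPM in control (SD, n = 2 each). Neither passed the edgeR test (adjusted p = 0.969 for Ctsb and 0.0718 for Ctsl).

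Of 12 cystatins and alpha-2-macroglobulins, inhibitors of other kinds, 3 were tested and none was called in either direction by edgeR, by DESeq2 or at an unadjusted p under 0.05, and the median of the log2 fold changes was 0.11. Cst3 (cystatin C), the most abundant, stood at 342 ± 57.7 CPM with UBXN9 and 317 ± 36.5 CPM in control (edgeR log2 fold change 0.11, adjusted p = 0.816), with a direction that turned when control replicate 1 or UBXN9 replicate 1 was left out.

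Of 33 cytokine, STAT and NF-kB signalling genes known to act on acute-phase genes, 31 were tested, 10 were called higher and 1 lower, and the median of the log2 fold changes was 0.63. Of all genes tested, 5.06% were called higher and 2.38% lower, and their median was -0.0056. Irf1, a transcription factor that interferon induces, stood at 463 and 381 CPM with UBXN9, against 115 and 116 CPM in control (edgeR log2 fold change 1.87, SE 0.17, adjusted p = 0.00136). Stat2 and Socs1, a STAT of type I interferon signalling and an inhibitor of JAK kinases, were higher by 1.58 and 1.31 on the log2 scale (edgeR adjusted p = 0.0023 and 0.00619).

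Signalling genes called higher also included Cebpb, Ifnb1, Lif, Jak1, Relb and Irf9. Ifnb1, and Il1a, which was not called, had fewer than 10 counts in each control and passed the filter through the UBXN9 libraries alone. Without them 29 were tested, 9 were called higher and 1 lower, and the median was 0.44. Il1r1, the receptor of interleukin-1, was the call in the lower direction, at 27.3 and 33.0 CPM with UBXN9, against 63.2 and 53.5 CPM in control (edgeR log2 fold change -0.95, SE 0.18, adjusted p = 0.0253). Without control replicate 1 its adjusted p was 0.195, at a log2 fold change of -0.83. The count of higher signalling calls was 5 without control replicate 1, 6 without control replicate 2 and 16 without UBXN9 replicate 1.

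**Figure D5:**
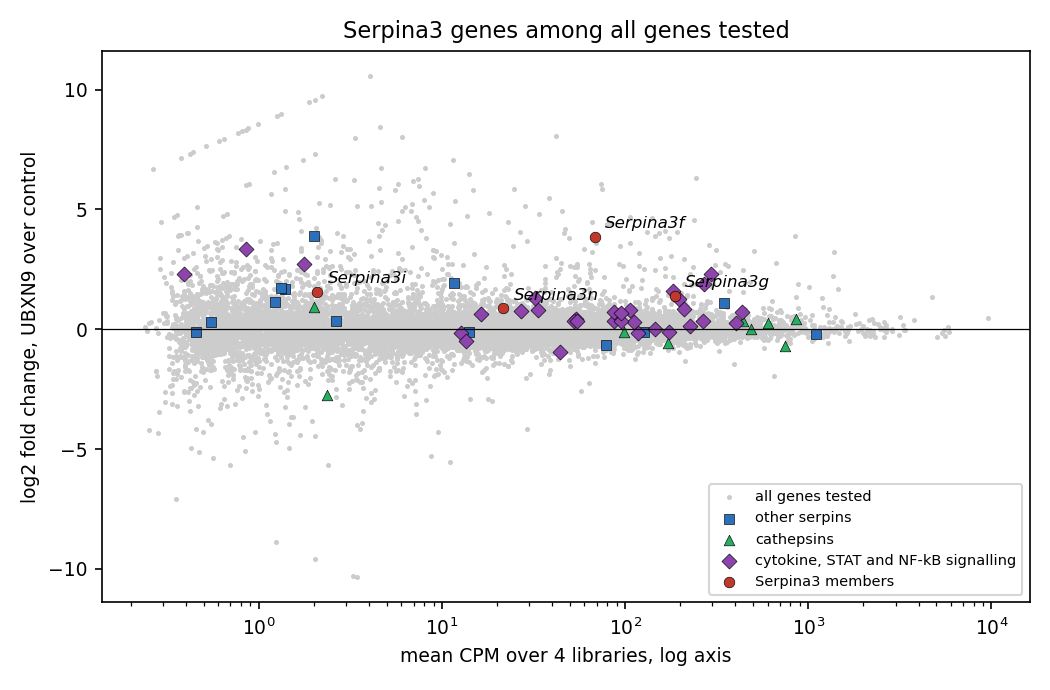
Log2 fold change of UBXN9 over control (edgeR) against mean CPM over the 4 libraries on a log axis, for all 13230 genes tested in grey, with the 4 tested members, other serpins, cathepsins and signalling genes in colour. Serpina3f, at 3.87, lies above the band of genes of like level, and cathepsins lie mostly near 0.

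Genes whose pattern over the 4 libraries lay nearest to that of a member were found by the Euclidean distance of centred log2 CPM among 11934 genes with a mean of at least 1 CPM. Nearest to Serpina3f were Sod3 (distance 0.21), Gbp2 (0.21) and Oas1a (0.30). Gbp2, a guanylate-binding protein, stood at 393 and 329 CPM with UBXN9, against 23.0 and 20.9 CPM in control. Nearest to Serpina3g were Tnfsf9 (0.08), Rnf114 (0.08) and Pnp (0.08), nearest to Serpina3i were Gm10132 (0.10), Mmp28 (0.12) and Bdkrb2 (0.14), and nearest to Serpina3n were Capn5 (0.05), Gprin2 (0.06) and Garem2 (0.07). No gene was named for more than 1 member. Among the members themselves, Serpina3g and Serpina3i were closest (0.35), and Serpina3f lay 2.45 from Serpina3g and 3.001 from Serpina3n. With 4 libraries in 2 groups such distances mainly follow the size of the group difference.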

How the data were processed

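The authors deposited a table of unscaled estimated counts, with a value per gene and library. HISAT2 2.1.0, HTSeq and GRCm38.p6 are named in the submitters' processing notes. How fractional counts arose, and how strand, overlapping genes and reads with several placements were handled, is not given in the sources used here. Values were rounded to whole counts. The 241 loci outside the annotation, which held 0.302% to 0.535% of counts, were left out of the main fit. GENCODE M21 gave symbols to 55141 of 55487 identifiers.

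The UBXN9 and control libraries were compared in R 4.3.3 by edgeR 4.0.16 (filterByExpr, TMM, quasi-likelihood F test, two-sided) over 13230 genes, with Benjamini-Hochberg adjustment and a threshold of 0.05, and with DESeq2 1.42.0 as an alternative. SE is the log2 fold change divided by the root of F. The script was tested on simulated data. An exact permutation test of 2 libraries against 2 cannot go below p = 0.333, so none was run. Coding sequences and promoters were aligned with mafft 7.526 and Biopython 1.88, and figures drawn with matplotlib 3.10.9. Alternatives are other scalings, filters, tests, pairings and libraries left out.

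The members, gene lists and tests were chosen with earlier results of these data known. Named genes are Aspscr1, the members, every other Serpina3 copy, genes beside the members, up to 4 called genes of smallest p per list and direction (without any, the most abundant), and the 3 nearest in pattern to each tested member. Outside this rule, marker genes that check the cell label, Ctsb, Ctsl, Il1a and the 6 signalling genes listed by name alone were chosen after their values were seen. Some genes that the rule names are not reported here.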

Additional observations from a re-analysis of the deposited data

How the results depend on the processing

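Serpina3f and Serpina3g were called higher under every alternative run, at log2 fold changes of 3.71 to 4.02 and 1.24 to 1.56. Serpina3n ranged from 0.73 to 1.05 and lost its call with library size alone, upper-quartile scaling, the replicate block, or either control left out. Serpina3i ranged from 1.29 to 1.89. It gained a call with no low-count filter, with crossed numbers, or without either UBXN9 library, and could not be fitted with the 5 CPM filter.

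Deviations of same-numbered libraries correlated at -0.373, which cannot decide whether the replicate numbers pair the libraries. Crossing the numbers joins the libraries whose deviations go together, so its counts are no independent check. With the numbers as a replicate block 640 genes were called higher and 292 lower, against 669 and 315 without it. With the numbers crossed, 1776 were called higher and 1361 lower, 20 signalling genes higher, 2 cathepsins higher and 3 lower, and 2 serpins of other clades higher and 1 lower.

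With no low-count filter 1144 genes were called higher and 683 lower, with 2 serpins of other clades higher and 1 lower, and 1 cathepsin higher and 3 lower. With the 5 CPM filter 1 clade B serpin was called higher and 0 cathepsins lower. With library size alone 2 cathepsins and 0 signalling genes were called lower. Upper-quartile scaling called 1 serpin of another clade lower, and DESeq2 called 1 such serpin and 3 cathepsins lower.

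With single libraries left out, genes called higher numbered 452 to 1591 and lower 161 to 1309. Serpins of other clades numbered 0 to 2 higher and 0 to 1 lower, cathepsins 1 to 2 lower, cystatins 0 to 1 lower, and signalling genes 5 to 16 higher and 0 to 2 lower. In these fits a group left with 1 library takes its spread from the other group. The log2 fold change of Serpina11 ran from -0.32 to 0.064, above 0 without UBXN9 replicate 2, and that of Cst3 from -0.066 without UBXN9 replicate 1 to 0.27, with -0.0038 without control replicate 1; none was called. The cause of these shifts was not tested.

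Across genes, the log2 difference between libraries of a group went with exon length (Spearman 0.42 for UBXN9, replicate 2 minus 1, and -0.33 for control). With 50-base in place of 100-base words, shared sequence grew to 10.6% for Serpina3f, 15.5% for Serpina3g, 21.9% for Serpina3h, 15.9% for Serpina3i, 19.1% for Serpina3m and 6.90% for Serpina3n. Depth limits Serpina3h and Serpina3m, whose counts support no comparison beyond their intervals.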
